A study of Homo sapiens with 12 samples.

Results

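The effect of quinacrine (QC) that 6 tumour cell lines, all labelled as ovarian cancer, had in common was read from 12 RNA-seq libraries, 12 of the 12 in the series. QC is an acridine compound, long used against malaria, that also kills tumour cells. Each line gave a library from cells exposed to 8 µM QC for 6 h and a library from cells given vehicle, and each QC library was set against the vehicle library of its own line, so that a line served as its own control. Each of 3 drug-sensitive lines was matched with a resistant derivative, HeyA8 with HeyA8-MDR (multidrug resistant), SK-OV-3 with SK-OV-3-TR (taxol resistant), and OV2008 with C13 (cisplatin resistant). The 6 lines therefore came from 3 parents, each line is a cultured tumour line without stroma or immune cells, and no line had a second library of the same treatment. The p-values therefore rest on the spread between lines, from which the spread within a line cannot be told apart. The fit took the 6 lines as independent although they are 3 related pairs, so the p-values may be too small.

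QC is a cationic amphiphilic drug. Drugs of this class are weak bases that collect in acidic lysosomes, where cholesterol from endocytosed lipoprotein is released, and lysosomes that fill with such a drug can hold back that cholesterol. Cells that sense too little cholesterol in the endoplasmic reticulum release SREBP transcription factors, which switch on cholesterol synthesis and uptake, while lysosomal stress releases the TFEB family of factors, which switch on proton pump, lysosome and autophagy genes. QC also binds DNA, and drugs that do so can disturb nucleolar transcription, chromatin and p53. These are background facts and were not measured here.

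The libraries held 17782556 to 30585059 gene counts (median 22289428). Levels are given as CPM (counts scaled to a common library size) after edgeR's TMM scaling, which compare a gene with itself and not with other genes. Changes and differences are log2 ratios of QC to vehicle, so that 1 means 2-fold higher, and each ± is the standard error (SE) of edgeR's estimate over the 6 lines unless stated. The HeyA8 QC library stood apart: among 41 genes whose vehicle level in HeyA8-MDR exceeded that in HeyA8 by 8-fold or more, it had moved by a median of 66.2% of the distance towards HeyA8-MDR, and among 84 genes lower in HeyA8-MDR by 8-fold or more by 23.6%, against −2.39% to 11.5% in the same measure for the QC libraries of the other 5 lines and their partners. The main counts are therefore also given without HeyA8. PAX8, an ovarian and Müllerian lineage factor, lay between 234 and 480 CPM in the HeyA8 and SK-OV-3 families but between 7.56 and 24.8 CPM in OV2008 and C13, where the squamous marker TP63 lay between 108 and 329 CPM and was at most 0.18 CPM in the other 4 lines. SOX17, another Müllerian factor, lay between 7.32 and 70.9 CPM in the first 2 families and was at most 0.0754 CPM in OV2008 and C13. The other 5 ovarian markers listed did not separate the families this way: MSLN had its highest family median, 7.67 CPM, in OV2008 and C13, WT1, MUC16 and FOLR1 had medians there between those of the other families, and EMX2 was at most 0.354 CPM in every library. The lines are therefore called by their names only.

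Some genes of cholesterol supply, such as SC5D and IDI1, and some proton pump, autophagy and histone genes were higher with QC in every line, and some genes of ribosome assembly and serine synthesis, such as GNL3L and PHGDH, were lower. Over the 18720 genes tested, edgeR's quasi-likelihood test with a term for each line gave an adjusted p under 0.05 to 0 genes (0%), and the smallest adjusted p was 0.123. With the newer quasi-likelihood method of the same tool, 44 higher and 13 lower genes had an adjusted p under 0.05, SC5D and IDI1 among them, at 0.0298 and 0.0254. At an unadjusted p under 0.05, 1495 genes (7.99%) were higher and 1345 (7.18%) lower with QC. DESeq2 with the same term for the line called 274 genes (1.46%) higher and 248 (1.32%) lower at an adjusted p under 0.05. Without both HeyA8 libraries, edgeR gave an unadjusted p under 0.05 to 1317 higher and 1076 lower genes, and 0 passed the adjustment.

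The sign of the change in each line gives a count that needs no model of the spread. QC libraries held a higher level than vehicle in 6 of 6 lines for 773 genes (4.13%) and a lower level in 6 of 6 lines for 861 genes (4.6%). Of these, 594 and 619 also had an unadjusted p under 0.05, and 191 and 198 were called by DESeq2. Many of the shared changes were small in some line: 313 of the 773 and 384 of the 861 reached a log2 change of 0.1 in every line, and 26 and 11 reached 0.5. SK-OV-3 set the smallest change for 559 of the 1634 genes, more than any other line. With HeyA8 left out, 1130 genes were higher and 1170 lower in 5 of 5 lines, a looser condition. The counts were 1258 and 1331 without SK-OV-3-TR, 1148 and 1372 without C13, and 1321 and 1640 without SK-OV-3. Counts of list members in 5 of 5 lines belong beside these totals, of 18720 genes tested, and not beside 4.13% and 4.6%.

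**Figure D1:**
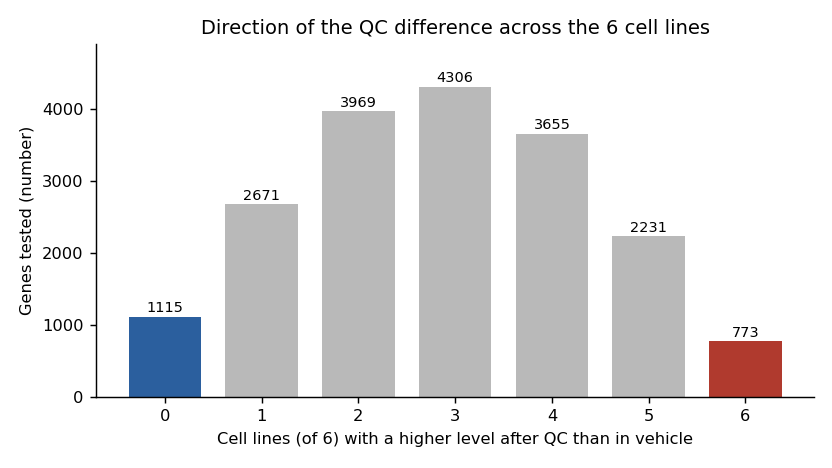
Number of genes tested (vertical axis) by the number of the 6 lines in which the QC library had a higher level than the vehicle library (horizontal axis). The red bar holds the 773 genes higher in 6 of 6 lines, and the blue bar holds 1115 genes higher in no line, of which 861 were lower in 6 of 6 lines and the others had a tie at 0 change in some line.

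The responses of the 6 lines resembled each other little over all genes. Across the 14994 genes with a mean of at least 1 CPM, the changes of OV2008 and C13 had a correlation (Pearson r) of 0.53, those of HeyA8 and HeyA8-MDR 0.27 and those of SK-OV-3 and SK-OV-3-TR 0.09. Between lines of different families r lay between −0.05 and 0.24. These values are across genes, which are not independent replicates. The SD of the changes was lowest in SK-OV-3, at 0.456, and highest in OV2008, at 0.735.

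**Figure D2:**
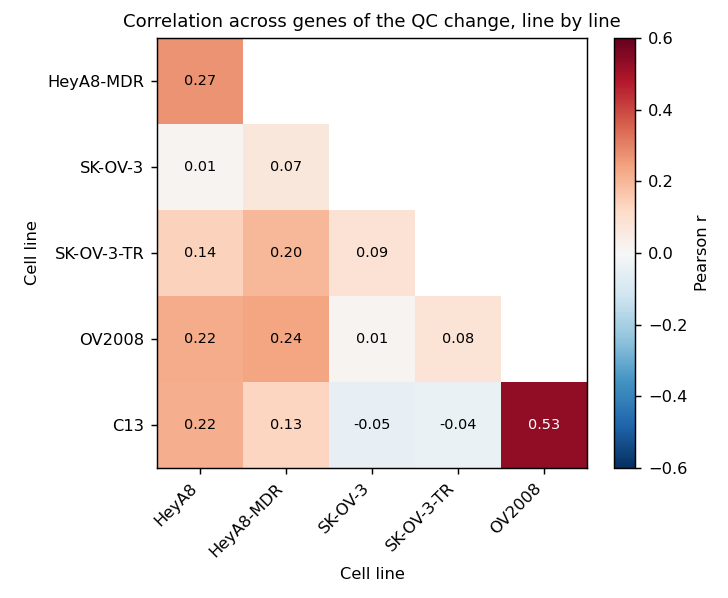
Pearson r, across 14994 genes, between the log2 changes (QC against vehicle) of each pair of cell lines, with lines on both axes and r as colour and number. OV2008 and C13 were the most alike, with r of 0.53, and C13 against SK-OV-3 was the lowest, at −0.05.

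Genes of cholesterol supply were in part higher with QC. Of 33 tested genes of cholesterol synthesis and SREBP targets, 8 (24.2%) were higher in 6 of 6 lines and 0 lower, against 4.13% and 4.6% of all genes. At an unadjusted p under 0.05, 12 were higher and 1, FASN, was lower, at a log2 change of −0.34. All genes tested gave 7.99% and 7.18% at that p. FASN makes fatty acids and was named after its value was seen. The median difference of the list was 0.26, against 0.0001 over all genes tested, and the medians by line ran from −0.01 in SK-OV-3-TR to 0.72 in HeyA8. Without HeyA8, 8 were higher and 1 lower in 5 of 5 lines, 10 higher genes had an unadjusted p under 0.05 and the median was 0.18. With scaling by library size in place of TMM, 6 were higher in every line, and without SK-OV-3-TR 13 were higher in 5 of 5 lines.

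SC5D, an enzyme late in cholesterol synthesis, had a lowest, median and highest level of 26.1, 40.7 and 184 CPM in vehicle and 46.8, 67.4 and 297 CPM with QC. The ranges overlapped, but each QC library lay above its own vehicle library, by log2 0.47 in SK-OV-3-TR to 0.90 in HeyA8-MDR. The change over the 6 lines was 0.68 ± 0.11 (SE), with a DESeq2 adjusted p of 2.09e-05, the lowest of the sterol genes. In the main edgeR fit its adjusted p was 0.123. That fit gave no gene an adjusted p under 0.05, also where a DESeq2 value is printed below. IDI1, the isomerase that supplies the isoprenoid building block, ran from 16.3 through 34.9 to 173 CPM in vehicle and from 22.3 through 73.4 to 279 CPM with QC. Its difference was 0.78 ± 0.12, between 0.45 in SK-OV-3 and 1.14 in HeyA8. Neither SC5D nor IDI1 was near 0 in any line.

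INSIG1, the SREBP target that holds the SREBP escort protein in the endoplasmic reticulum, ran from 5.83 through 24.6 to 199 CPM in vehicle and from 6.88 through 40.6 to 454 CPM with QC. Its difference was 0.81 ± 0.14 and was smallest, 0.24, in OV2008, where its level was also lowest. MSMO1, a sterol demethylating enzyme, differed by 0.85 ± 0.15, with levels from 17.3 through 38.3 to 377 CPM in vehicle and from 26.9 through 88.3 to 557 CPM with QC. FADS2 (a fatty acid desaturase), STARD4 (a cholesterol carrier) and FDFT1 (squalene synthase) differed by 0.66, 0.61 and 0.36. The DESeq2 adjusted p of FADS2, STARD4 and FDFT1 lay between 0.031 and 0.039. Of 12 tested genes of cholesterol export and LXR, NPC2 and NPC1, which carry cholesterol out of the lysosome, were higher in 6 of 6 lines, at 0.39 ± 0.11 and 0.36 ± 0.12, and 0 were lower.

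The windows before the transcription start of SC5D and INSIG1 are shown because they hold the E-box CACGTG, which many basic helix-loop-helix factors bind, among them the SREBP and TFEB families. The sequences are the 200 bases before the start in RefSeq, build GRCh38.p14, at chr11:121292571-121292770 (plus strand) and chr7:155297678-155297877 (plus strand). They read 5′ to 3′ on the gene's strand, and capitals mark CACGTG as well as the TATA motif (TATAAA) and the CCAAT box on either strand.
SC5D: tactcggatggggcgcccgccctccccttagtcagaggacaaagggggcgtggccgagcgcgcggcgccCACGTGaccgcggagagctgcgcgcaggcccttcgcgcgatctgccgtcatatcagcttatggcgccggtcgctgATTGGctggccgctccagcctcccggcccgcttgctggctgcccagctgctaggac
INSIG1: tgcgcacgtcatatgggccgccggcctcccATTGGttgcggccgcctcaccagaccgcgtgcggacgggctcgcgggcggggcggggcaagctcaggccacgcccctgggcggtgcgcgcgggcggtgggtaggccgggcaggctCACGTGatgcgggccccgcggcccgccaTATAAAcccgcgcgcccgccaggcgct
The E-box began 131 bases before the start in SC5D and 55 bases before it in INSIG1, and INSIG1 also had TATAAA, which began 27 bases before the start. Of the 8 sterol genes higher in every line, 6 had a promoter in the RefSeq table, which runs from 250 bases before to 50 after the start, and 2 of them held CACGTG on either strand, against 9.64% of the 12633 promoters of tested genes. A match of letters is a description and not a binding site.

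Several proton pump subunits were also higher with QC. The vacuolar ATPase acidifies lysosomes, with a soluble V1 sector that burns ATP and a membrane V0 sector that carries protons. Of 17 tested subunits, 6 (35.3%) were higher in 6 of 6 lines, ATP6V1D, ATP6V1E1, ATP6V1H, ATP6V1G1, ATP6V1C1 and ATP6V0D1, and 1, ATP6V0E2, was lower. All genes tested gave 4.13% and 4.6%. The medians of the list by line lay above 0 in 6 of 6 lines, between 0.10 in SK-OV-3 and 0.27 in HeyA8. At an unadjusted p under 0.05, 6 were higher and 1 lower, against 7.99% and 7.18% of all genes. Without HeyA8 the number higher at that threshold was 3, and it was also 3 after correction for GC content and length.

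ATP6V1D, a stalk subunit of V1, ran from 27.3 through 49.1 to 94.6 CPM in vehicle and from 37.1 through 72.6 to 196 CPM with QC. Its difference was 0.76 ± 0.13, between 0.37 in C13 and 1.06 in HeyA8, with a DESeq2 adjusted p of 0.00024. ATP6V1E1, another stalk subunit, differed by 0.67 ± 0.17, from 0.11 in C13 to 1.48 in HeyA8, a wide spread of sizes with 1 sign. ATP6V1H differed by 0.43, ATP6V1G1 by 0.30, ATP6V1C1 by 0.25 and ATP6V0D1 by 0.17, and DESeq2 called none of these 4. The exception ATP6V0E2, a small V0 subunit, differed by −0.66 ± 0.20, with a lowest count of 12 and 19.7% of its exonic bases shared with neighbouring genes.

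Autophagy genes were higher in part, and lysosomal genes went both ways. Of 46 tested autophagy genes, 8 (17.4%) were higher in 6 of 6 lines and 0 lower, and 13 were higher and 1 lower at an unadjusted p under 0.05. The lower gene was ATG10, at −0.51, named after its value was seen. Over all genes, 4.13% were higher and 4.6% lower in 6 of 6 lines, and 7.99% and 7.18% at that p. With library size in place of TMM the count higher in every line was 3, while 11 had an unadjusted p under 0.05. Without HeyA8, 9 were higher in 5 of 5 lines, and without SK-OV-3 15 were. Of 53 tested lysosomal enzymes and membrane proteins, 5 (9.43%) were higher and 2 (3.77%) lower in 6 of 6 lines, with a median difference of 0.01.

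TAX1BP1, a receptor that brings ubiquitin-tagged cargo to autophagosomes, ran from 98.6 through 144 to 151 CPM in vehicle and from 163 through 202 to 218 CPM with QC. All 6 QC libraries lay above all 6 vehicle libraries. Of the 197 genes the naming rule covers, most of them chosen for 1 sign in every line, TAX1BP1 and ZNF784 were the 2 whose groups did not overlap. The share of such genes over all genes tested was not counted, so it is open how rare this is. The difference for TAX1BP1 was 0.55 ± 0.13, and its DESeq2 adjusted p was 0.013. MAP1LC3B, which codes for the LC3B protein of autophagosome membranes, ran from 50.5 through 106 to 161 CPM in vehicle and from 87.8 through 170 to 236 CPM with QC. Its difference of 0.59 ± 0.13 ranged from 0.25 in SK-OV-3 to 1.11 in HeyA8-MDR.

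The LC3-processing protease ATG4A differed by 0.71 ± 0.17, the conjugation factor ATG12 by 0.56 and the cargo receptor OPTN by 0.39. UVRAG and BECN1, of lipid kinase complexes in the autophagy pathway, differed by 0.39 and 0.24, and the tether subunit VPS11 by 0.16, and DESeq2 called none of these 3. ATG16L2, a relative of the autophagy scaffold ATG16L1, went the other way in every line, from 7.34 through 37.5 to 114 CPM in vehicle to 3.92 through 21.9 to 59.0 CPM with QC. Its difference was −0.68 ± 0.13, with a DESeq2 adjusted p of 0.0014.

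Among lysosomal genes, RRAGC, a GTPase that places the nutrient sensor mTORC1 on the lysosome, differed by 0.43 ± 0.12, between 0.09 in HeyA8 and 0.62 in HeyA8-MDR, and shares 23.1% of its exonic bases with another gene. The membrane protein genes LAMP2 and CD63 differed by 0.25 and 0.23, with DESeq2 adjusted p between 0.13 and 0.18. PSAP, the precursor of sphingolipid activator proteins, differed by 0.11. The 2 members lower in every line were the protease gene CTSC, at −0.60 ± 0.18, and GUSB, at −0.26 ± 0.11. SPTLC2, a subunit of the enzyme that starts sphingolipid synthesis, was lower in 6 of 6 lines, from 42.1 through 78.2 to 207 CPM in vehicle to 29.9 through 49.7 to 125 CPM with QC. Its difference was −0.70 ± 0.12, with the smallest p of all the lower genes ranked. HPSE, a lysosomal heparanase, differed by −0.72 ± 0.20, which ran from −0.36 in SK-OV-3-TR to −1.80 in HeyA8.

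The promoters of 3 genes of this group are shown because each holds CACGTG, the core of the TFEB element. They are the 200 bases before the start of ATP6V1G1 (chr9:114587569-114587768, plus strand), ATP6V0D1 (chr16:67481158-67481357, minus strand) and RRAGC (chr1:38859773-38859972, minus strand), in GRCh38.p14, with the same capitals as above.
ATP6V1G1: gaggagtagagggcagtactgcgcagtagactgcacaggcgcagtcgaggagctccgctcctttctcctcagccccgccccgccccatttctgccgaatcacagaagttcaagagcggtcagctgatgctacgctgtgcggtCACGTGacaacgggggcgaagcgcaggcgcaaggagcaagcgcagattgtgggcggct
ATP6V0D1: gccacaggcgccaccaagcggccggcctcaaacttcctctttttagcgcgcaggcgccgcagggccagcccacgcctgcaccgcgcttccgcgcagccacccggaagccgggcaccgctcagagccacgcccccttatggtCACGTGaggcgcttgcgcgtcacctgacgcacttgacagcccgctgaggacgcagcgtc
RRAGC: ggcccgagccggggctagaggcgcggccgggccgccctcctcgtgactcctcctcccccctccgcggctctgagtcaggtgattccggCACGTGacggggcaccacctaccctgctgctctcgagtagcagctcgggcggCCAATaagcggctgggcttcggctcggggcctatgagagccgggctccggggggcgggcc
CACGTG began 58, 59 and 112 bases before the start in ATP6V1G1, ATP6V0D1 and RRAGC. Among genes higher in every line, CACGTG was in 2 of 4 pump promoters, counted from 250 bases before to 50 after the start, and likewise in 2 of 2 lysosomal promoters and 1 of 7 autophagy promoters that the table holds. The promoter of ATP6V1D, the pump gene with the largest difference, held none of the 3 motifs in this window.

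Histone genes had the largest median of all 42 lists, 0.99. Replication-dependent histone mRNAs normally end in a stem-loop without a poly(A) tail, and these libraries were made from poly(A) RNA, so that the levels are those of tailed transcripts. The list held 62 genes, and the 25 that passed the filter on low counts were tested. A gene could pass that filter by its QC libraries alone, so the median and counts may lean towards higher genes. Of the 25, 16 were higher and 0 lower at an unadjusted p under 0.05, against 7.99% and 7.18% of all genes. DESeq2 called 9 higher. In 6 of 6 lines, 5 (20%) were higher and 0 lower, against 4.13% and 4.6% of all genes. The median by line was exactly 0 in SK-OV-3, the value of a gene with no counts in either library of that line. In the other lines it lay between 0.41 in SK-OV-3-TR and 1.71 in OV2008. Without SK-OV-3, 14 were higher in 5 of 5 lines, without SK-OV-3-TR 8 were, and without HeyA8 5 were, with 12 at an unadjusted p under 0.05.

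H2BC11 ran from 0.544 through 2.04 to 3.24 CPM in vehicle and from 0.727 through 6.53 to 13 CPM with QC. Its difference was 1.48 ± 0.31, between 0.37 in SK-OV-3 and 2.59 in OV2008. H2AC11 differed by 1.59 ± 0.36 and the linker histone gene H1-2 by 0.95 ± 0.21, and DESeq2 adjusted p was 0.0034, 0.0043 and 0.0063 for H2BC11, H2AC11 and H1-2. H2AC13 and H2BC9, at 1.37 and 0.71, had lowest counts of 0 and 4. Near-identical copies of these genes can share reads, so values of single histone genes are uncertain.

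H2AC11 and H2BC11 lie head to head, and 247 bases lie between their starts. The region is shown because it precedes both genes and holds TATAAA near each end. It is chr6:27132793-27133042 in GRCh38.p14, read on the strand of H2AC11.
H2AC11: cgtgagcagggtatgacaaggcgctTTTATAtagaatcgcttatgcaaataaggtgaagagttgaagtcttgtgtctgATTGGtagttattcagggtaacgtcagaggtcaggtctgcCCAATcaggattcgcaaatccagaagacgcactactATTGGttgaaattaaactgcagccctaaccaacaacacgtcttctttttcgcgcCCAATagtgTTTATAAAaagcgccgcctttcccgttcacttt
TATAAA began 31 bases before the H2AC11 start, and its complement TTTATA lay at the other end, beginning 225 bases before it. CCAAT was present 4 times, on either strand. TATAAA was in 3 of the 5 promoters of histone genes higher in every line and CCAAT in 5, against 6.05% and 35.9% of promoters of tested genes. The windows of H2AC11 and H2BC11 are in large part the same stretch, which both counts include for each gene, so the 5 are not independent.

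**Figure D3:**
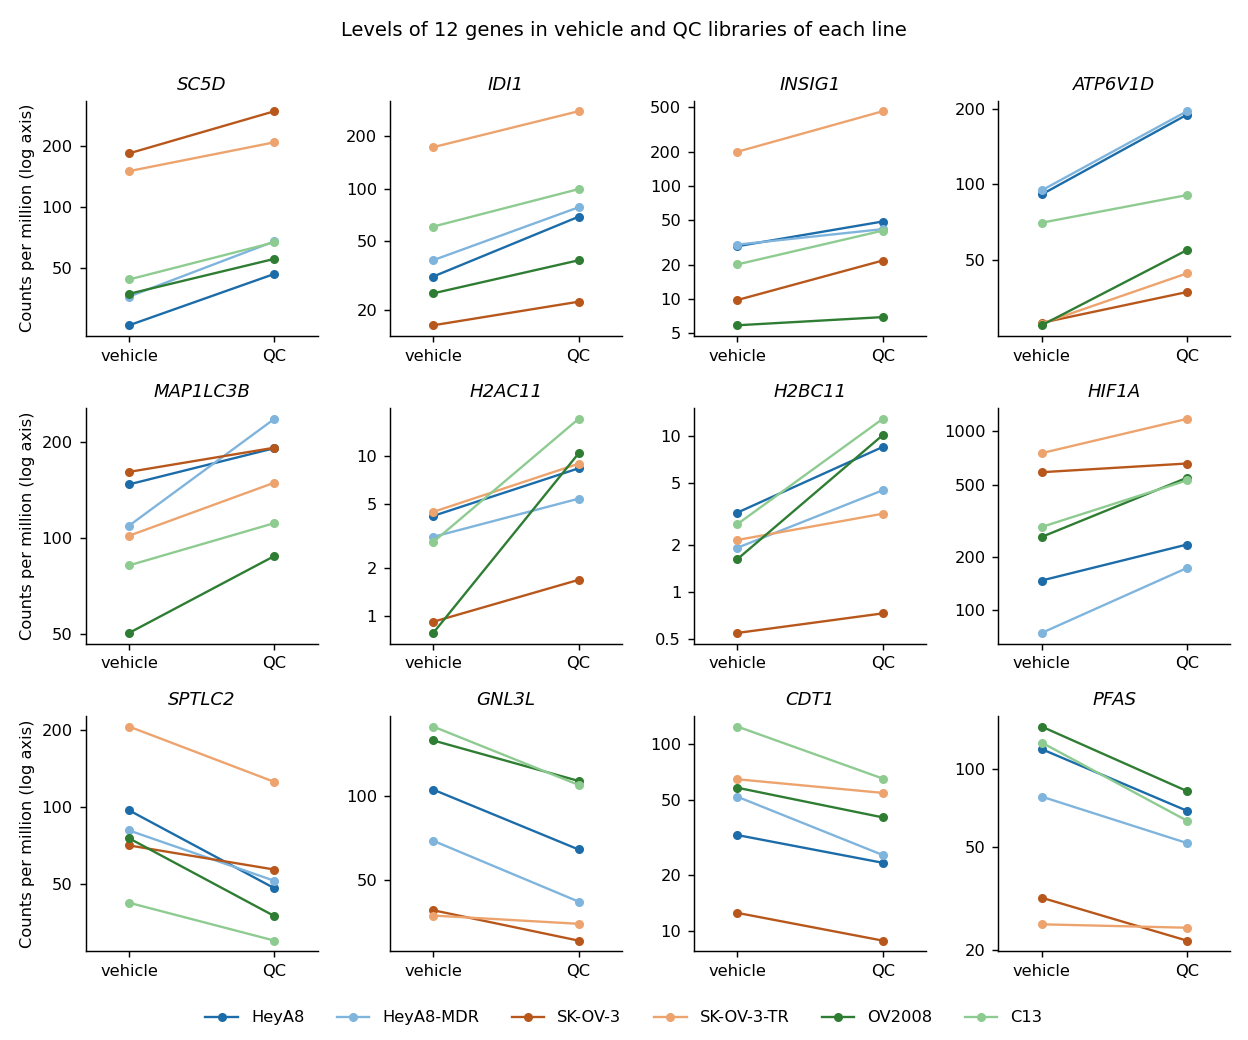
CPM (log axis) of 12 genes in the vehicle and the QC library of each of the 6 lines, with each line in its own colour and a segment joining the libraries of a line. Segments of the sterol, pump, autophagy and histone genes and of HIF1A slope upward in 6 of 6 lines, and those of SPTLC2, GNL3L, CDT1 and PFAS slope downward.

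Immediate early genes are switched on without new protein synthesis after a signal. Of 44 tested, 14 were higher and 0 lower at an unadjusted p under 0.05, against 7.99% and 7.18% of all genes. In 6 of 6 lines 7 (15.9%) were higher, against 4.13% of all genes. The medians by line lay between 0.04 in SK-OV-3 and 0.88 in OV2008. Without OV2008, 9 of the list were higher at an unadjusted p under 0.05, and without HeyA8 13. FOS, a subunit of the AP-1 factor, ran from 1.24 through 4.35 to 6.25 CPM in vehicle and from 1.91 through 9.99 to 24.1 CPM with QC. Its difference of 1.16 ± 0.29 ranged from 0.13 in HeyA8 to 2.21 in OV2008.

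KLF10, a TGF-beta-induced repressor, differed by 0.68 ± 0.16, KLF6 by 0.59, the ERK phosphatase gene DUSP5 by 0.49 and JUNB by 0.38. EGR2 and NR4A3, a zinc finger factor and an orphan nuclear receptor, were near the limit of detection, with lowest counts of 0 and 4, and were also higher in every line. HIF1A, the oxygen-regulated factor of hypoxia, ran from 74.9 through 275 to 755 CPM in vehicle and from 172 through 541 to 1172 CPM with QC. Its difference was 0.77 ± 0.14, between 0.16 in SK-OV-3 and 1.20 in HeyA8-MDR, with a DESeq2 adjusted p of 0.00044. Of the 34 tested glycolysis and hypoxia-induced genes, HIF1A was the 1 higher in 6 of 6 lines, and 0 were lower. Without SK-OV-3, 6 of that list were higher in 5 of 5 lines.

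Targets of p53, the DNA damage-responsive factor, were higher in some lines and not in others. Of 40 tested, 17 were higher and 0 lower at an unadjusted p under 0.05, against 7.99% and 7.18% of all genes, with a median difference of 0.40. But 4 (10%) were higher in 6 of 6 lines, against 4.13% of all genes. The list median was highest in C13 (0.79), OV2008 (0.66) and HeyA8 (0.56), 0.04 in both HeyA8-MDR and SK-OV-3, and −0.11 in SK-OV-3-TR. Without HeyA8, 12 were higher at that threshold, while 11 without SK-OV-3-TR and 7 without SK-OV-3 were higher in 5 of 5 lines. RPS27L, a ribosomal protein relative, ran from 18.3 through 32.8 to 171 CPM in vehicle and from 20.7 through 49.1 to 242 CPM with QC. Its difference was 0.52 ± 0.11, with a DESeq2 adjusted p of 0.0045.

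RRM2B, the p53-induced subunit of ribonucleotide reductase, differed by 0.83 ± 0.21, but by only 0.02 in SK-OV-3 and 1.87 in C13. ASCC3, a DNA repair helicase gene, differed by 0.32, and BAX, which opens the mitochondrial outer membrane in apoptosis, by 0.12 ± 0.10, about the size of its error. GDF15, a stress-induced cytokine gene, had the second smallest p of the list and was higher in 5 of 6 lines, at 1.20. Of 16 tested genes of the BCL2 family, BAX was higher and BCL2, the founding survival gene, lower in every line (6.25% each). The shares of all genes were 4.13% and 4.6%.

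Genes that build ribosomes were lower in part. Of 98 tested ribosome assembly and nucleolar factors, 11 (11.2%) were lower and 1 higher in 6 of 6 lines, and 13 were lower and 3 higher at an unadjusted p under 0.05. The median difference was −0.08, and the medians by line were above 0 in SK-OV-3-TR and OV2008. Over all genes, 4.6% were lower and 4.13% higher in 6 of 6 lines, and 7.18% and 7.99% at that p. Without HeyA8, and likewise without HeyA8-MDR, 8 were lower at that threshold, and without SK-OV-3-TR 20 were lower at that threshold and 22 in 5 of 5 lines. Without C13, 8 were higher in 5 of 5 lines, as were 1148 of the 18720 genes tested. With library size in place of TMM, 4 were higher and 13 lower in every line. The genes lower in 6 of 6 lines were GNL3L, NLE1, UTP14A, NOL6, NOP53, NOP56, WDR3, GAR1, RRP8, NOL9 and WDR75, and the higher gene was KRR1, at 0.67 ± 0.17. GNL3L, a nucleolar GTPase related to nucleostemin, ran from 37.3 through 87.0 to 177 CPM in vehicle and from 30.3 through 53 to 113 CPM with QC.

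The difference for GNL3L was −0.51 ± 0.12, and its DESeq2 adjusted p was 0.0067. NLE1, of the large subunit pathway, differed by −0.51 ± 0.12, and NOP56, a core protein of box C/D snoRNPs, by −0.33 ± 0.11. Changes of the other 8 lay between −0.46 and −0.12, and DESeq2 called none of them. GNL3, the gene of nucleostemin itself, differed by −0.19 ± 0.14 and was lower in 5 of 6 lines. The stress granule gene G3BP1 differed by −0.12 ± 0.15, lower in 4 of 6. Neither had an unadjusted p under 0.05 in edgeR, at 0.19 and 0.45.

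RNA polymerase I makes the large ribosomal RNAs. Of 22 tested subunits and factors, POLR1E, POLR1A and POLR1G (13.6%) were lower in 6 of 6 lines and TOP1 and POLR2K (9.09%) higher. The shares of all genes were 4.6% and 4.13%, and the median difference of the list was 0.003. POLR1E ran from 23.6 through 46.3 to 103 CPM in vehicle and from 15.9 through 32.2 to 64.2 CPM with QC, a difference of −0.49 ± 0.12 with a DESeq2 adjusted p of 0.013. POLR1A, the largest subunit, differed by −0.50 ± 0.19, which came mostly from HeyA8-MDR and HeyA8, at −1.43 and −1.17. POLR1G, at −0.24, shares 49.8% of its exonic bases with ERCC1 on the opposite strand, and its value is uncertain. TOP1, the topoisomerase that relaxes DNA ahead of polymerases, differed by 0.59 ± 0.13.

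Of the 79 tested cytoplasmic ribosomal protein genes, 2 (2.53%), RPS9 among them, were lower in 6 of 6 lines and 0 higher. That is below the 4.6% of all genes. The medians by line of this list went both ways, from −0.43 in C13 to 0.35 in HeyA8-MDR. Of 76 mitochondrial ribosomal protein genes, 4 were higher (MRPL13, MRPL39, MRPL48 and MRPS33) and 3 lower (MRPL30, MRPS2 and MRPS25), beside 4.13% and 4.6% of all genes. Without C13 11 of them were higher and without SK-OV-3-TR 7 were lower in 5 of 5 lines. Under the same 2 conditions, 1148 and 1331 of the 18720 genes tested were.

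Biosynthetic enzymes were in part lower. Of 17 tested enzymes of serine, glycine and one-carbon metabolism, 4 (23.5%) were lower and 0 higher in 6 of 6 lines. At an unadjusted p under 0.05, 8 were lower and 0 higher, or 6 lower without HeyA8. Over all genes, 4.6% were lower and 4.13% higher in 6 of 6 lines, and 7.18% and 7.99% at that p. PHGDH, the first enzyme of serine synthesis, ran from 83.0 through 187 to 317 CPM in vehicle and from 37.7 through 108 to 195 CPM with QC. Its difference was −1.01 ± 0.21, from −0.10 in SK-OV-3 to −1.73 in HeyA8, with a DESeq2 adjusted p of 0.0023. MTR, the methionine synthase gene, differed by −0.38 ± 0.11 and lay between −0.24 in C13 and −0.69 in HeyA8.

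MAT2A, which makes the methyl donor S-adenosylmethionine, differed by −0.68 ± 0.22, from −0.08 in SK-OV-3 to −1.92 in HeyA8. CBS differed by −1.06 ± 0.30 and shares 36.8% of its exonic bases with an overlapping gene, so its value is uncertain. Of 23 nucleotide synthesis enzymes, the purine enzyme gene PFAS and the pyrimidine enzyme genes CAD and UMPS were lower in 6 of 6 lines and 0 were higher. All genes tested gave 4.6% and 4.13%. After correction for GC content and length 1 was lower in every line, and with library size in place of TMM 2 were. PFAS ran from 25.1 through 98.5 to 145 CPM in vehicle and from 21.8 through 57.4 to 82.0 CPM with QC, a difference of −0.64 ± 0.13. CAD and UMPS differed by −0.55 and −0.33, and DESeq2 called neither. The glutamine carrier gene SLC1A5 was the 1 of 18 amino acid transporters with the same sign in every line, at −0.77 ± 0.20, and 23.8% of its exonic bases are shared with genes on the opposite strand.

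Cell cycle genes split by line. Of 54 tested DNA replication and licensing genes, CDT1, TIMELESS and ORC1 (5.56%) were lower and ORC4 (1.85%) higher in 6 of 6 lines, close to or below the 4.6% and 4.13% of all genes. Without HeyA8 2 were lower in 5 of 5 lines, and without SK-OV-3-TR 10 were. CDT1, which loads the replicative helicase, ran from 12.5 through 55.3 to 124 CPM in vehicle and from 8.85 through 33.0 to 65.5 CPM with QC. Its difference was −0.62 ± 0.13, with a DESeq2 adjusted p of 0.0034. Of 23 tested G1 cyclins, CDKs and inhibitors, 2 (8.7%) were higher and 2 (8.7%) lower in 6 of 6 lines, with a median difference of −0.04. RB1, the G1 gatekeeper, was higher at 0.63 ± 0.15, as was E2F7, at 0.27, while CCNE1 and E2F2 were lower, at −0.23 and −0.56. Of 38 tested homologous recombination and Fanconi genes, RAD51C (2.63%) was higher, at 0.42, and FANCA and FANCL (5.26%) lower, at −0.43 and −0.51, also near the shares of all genes.

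Of 54 G2 and mitosis genes, 12 were higher at an unadjusted p under 0.05, against 7.99% of all genes. But ECT2, an activator of cytokinesis, was the 1 higher in 6 of 6 lines. The medians by line were 1.43 in SK-OV-3, 0.71 in HeyA8-MDR and 0.61 in SK-OV-3-TR, and −0.51, −0.25 and −0.43 in HeyA8, OV2008 and C13. Without HeyA8, 16 were higher at that threshold and 9 in 5 of 5 lines, and without C13 16 and 3. Without SK-OV-3, and likewise without HeyA8-MDR, the number at that threshold was 2, without SK-OV-3-TR it was 4, and after correction for GC content and length it was 6.

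Interferon-stimulated genes were lower in part. Of 31 tested, 11 were lower and 1 higher at an unadjusted p under 0.05, and 4 (12.9%), GBP1, PARP9, MX1 and HERC6, were lower and 1 (3.23%) higher in 6 of 6 lines, against 4.6% and 4.13% of all genes. All genes tested gave 7.18% lower and 7.99% higher at that p. The median of the list by line was 0.20 in C13 and below 0 in the other 5 lines. GBP1, a guanylate-binding antiviral protein gene, ran from 0.945 through 5.38 to 24.9 CPM in vehicle and from 0.636 through 3.11 to 7.46 CPM with QC, a difference of −0.93 ± 0.24. Without HeyA8, 8 were lower at that threshold, and with library size in place of TMM 2 were lower in every line.

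**Figure D4:**
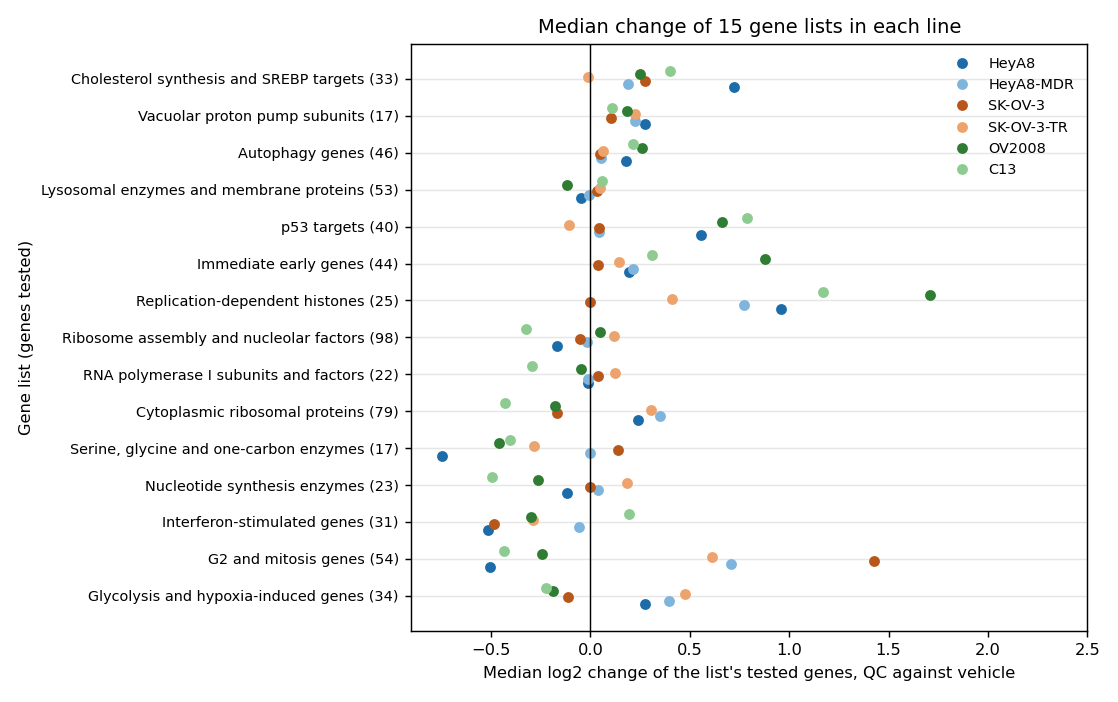
Median log2 change (QC against vehicle) of the tested genes of 15 lists in each line, with the number of genes tested in brackets and a point for each line. Pump, autophagy and immediate early genes lay above 0 in 6 of 6 lines, p53 targets and sterol genes in 5, and the G2 and mitosis list spread from −0.51 in HeyA8 to 1.43 in SK-OV-3.

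Other processes had few or no members of 1 sign, beside 4.13% of all genes higher and 4.6% lower in 6 of 6 lines. Of 27 tested endoplasmic reticulum chaperone and unfolded protein response genes, DNAJB9 and SELENOS (7.41%) were higher, at 0.46 and 0.38. XBP1 (3.7%) was lower, at −0.23. Of 22 tested ATF4 and integrated stress response genes, XBP1 was the 1 of 1 sign. At an unadjusted p under 0.05, 4 of them were higher and 5 lower, but 1 was lower without HeyA8, SK-OV-3-TR or OV2008 and 8 without SK-OV-3, and DESeq2 called 2 higher and 0 lower. Of 30 NRF2 antioxidant and iron genes, KEAP1, which holds NRF2 down, was lower, at −0.41 ± 0.11. Of 46 RNA polymerase II and general factor genes, TAF2, TAF5, TAF9 and TAF13 (8.7%) were higher and TAF1 and MEPCE (4.35%) lower. TAF5, a TFIID subunit, differed by 0.73 ± 0.16, and MEPCE shares 67.3% of its exonic bases with other genes. Of 74 nuclear-encoded respiratory chain genes, NDUFS4 and SDHC (2.7%) were higher and 1 (1.35%) lower in 6 of 6 lines, below the shares of all genes, and without C13 13 were higher in 5 of 5 lines. The drug efflux pump gene ABCC5 was lower, at −0.39 ± 0.12, and was the 1 of 11 tested ABC transporters with the same sign in every line.

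Splicing factors gave DDX5 (2%) higher and SRSF6 and SF3A2 (4%) lower among 50, below the 4.13% and 4.6% of all genes. YAP and TGF-beta targets gave KLF10 and TGFBR1 (7.14%) higher among 28. Stress granule proteins gave FMR1 higher and UBAP2L lower (6.25% each) among 16. Lists of NF-kB targets (28 tested), cytosolic heat shock genes (25), proteasome subunits (31), mitochondrially encoded proteins (13), DNA methylation and TET enzymes (12), tubulins (14) and metallothioneins (6) held 0 genes of 1 sign in 6 of 6 lines. For heat shock genes the medians by line ran from −0.39 in C13 to 0.92 in SK-OV-3-TR, with 3 lines above 0 and 3 below. Among the cell type markers, 7 squamous genes had a median difference of −0.51, with line medians of −0.94 in OV2008 and −0.35 in C13. In the other 4 lines the median was 0, the value of a gene with no counts in either library. The median difference was −0.11 without OV2008, −0.29 without SK-OV-3-TR and −0.90 without C13. No squamous gene had 1 sign in every line. KRT5, KRT6A and KRT14, named after their values were seen, were lower at an unadjusted p under 0.05. The 6 tested ovarian and Müllerian markers held 0 genes at that threshold.

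Ranking all genes by the size they kept in every line gave genes outside these lists. The genes with the largest smallest change among the 6 lines included some of low level. CLDN9, a tight junction claudin, had 0 counts in the vehicle libraries of HeyA8, SK-OV-3 and SK-OV-3-TR, between 4 and 30 in the other 3, and between 2 and 280 in the QC libraries. RPE65, the isomerase of the visual cycle, had 0 to 444 counts in vehicle and 1 to 951 with QC. CLCA2, a p53-inducible chloride channel regulator, had 0 to 161 counts in vehicle and 6 to 782 with QC. Fold changes of these 3 genes depend on the value put in place of 0 and are not given.

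MROH8, of unknown function, was higher by 1.92 ± 0.33, from 0.66 in SK-OV-3-TR to 2.89 in C13, at a vehicle median of 0.641 CPM. A better measured gene at the top was MOSPD1, at 0.81 ± 0.16, with no line under 0.49. CTNNAL1, an alpha-catenin relative, was named for its small p and not for this rank. It differed by 0.85 ± 0.15, and by 0.17 in SK-OV-3. ELAPOR1, a regulator of lysosome and autophagy traffic in secretory cells, was higher by 1.59 ± 0.32, between 0.47 in SK-OV-3 and 3.22 in OV2008. Its counts in vehicle and QC were 12 and 16 in SK-OV-3 and 8 and 111 in OV2008, so these 2 sizes are uncertain. LINC00431 shares 100% of its exonic bases with another gene and is uncertain, and SVEP1, DACT1, LINC00592 and ACBD7 were also among the 15. The lowest count of LINC00592 was 0.

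Among genes lower in every line, ZNF784, a zinc finger gene, ran from 4.43 through 5.49 to 8.91 CPM in vehicle and from 1.3 through 2.86 to 4.04 CPM with QC. All 6 QC libraries lay below all 6 vehicle libraries, and the difference was −1.11 ± 0.22. FGFBP1, which carries fibroblast growth factors, differed by −1.42 ± 0.26, and it was at 0 counts in a QC library and reached 141 CPM in vehicle. TSPAN1, a tetraspanin gene, ran from 3.43 through 100.3 to 264 CPM in vehicle and from 2.31 through 61.4 to 201 CPM with QC, a difference of −0.65 ± 0.13.

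ATP7A, the copper-exporting pump, differed by −0.63 ± 0.15, ranging from −0.37 in SK-OV-3-TR to −1.06 in OV2008. H6PD, which makes NADPH inside the endoplasmic reticulum, differed by −0.86 ± 0.17, but its level in SK-OV-3 with QC was 0.998 of that in vehicle. ZHX3, MYEOV and P3H4 differed by −0.68, −0.61 and −0.80. The pseudogene C19orf48P lay between −0.40 in SK-OV-3 and −0.75 in C13. ARHGAP40, HDDC3, MFSD13A, MYO1F, DOK1, ZNF691 and MAMSTR were also among the lower genes, with values from −0.97 in MYO1F to −0.55 in DOK1, and 25.5% of the exonic bases of HDDC3 are shared with UNC45A on the opposite strand. The lowest count of ARHGAP40 was 0.

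**Figure D5:**
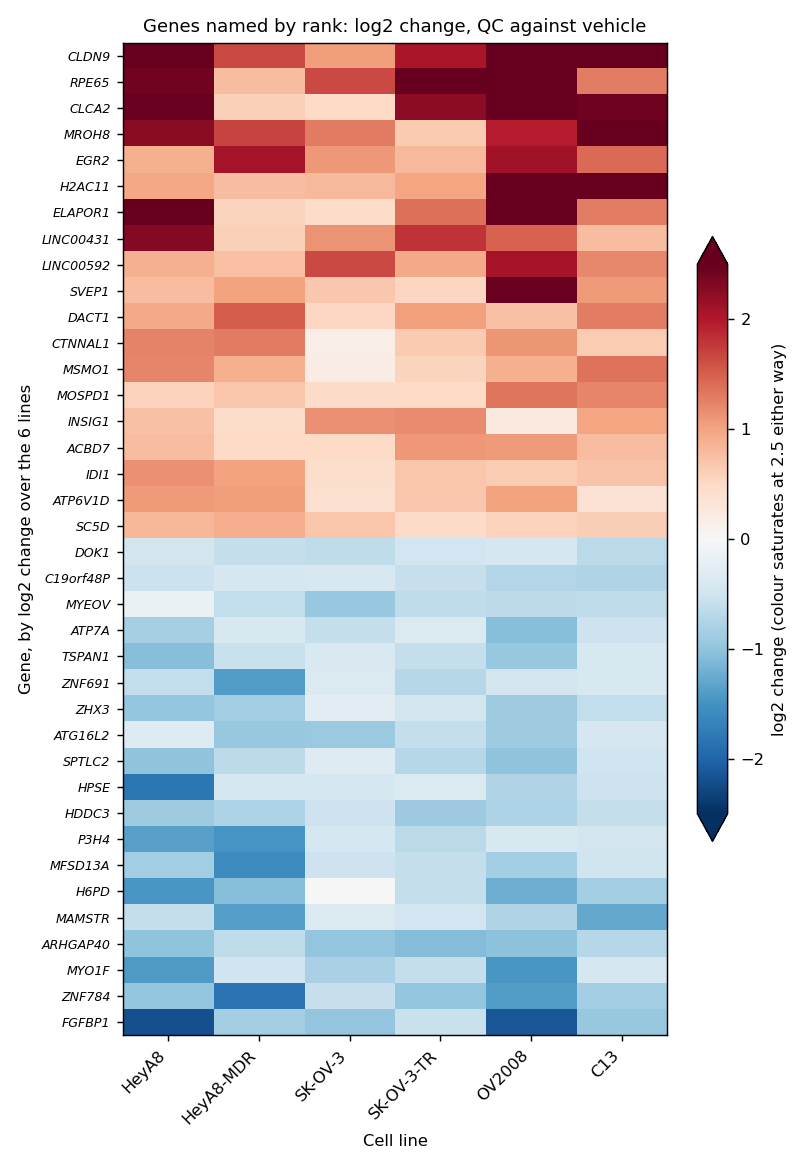
Log2 change (QC against vehicle, colour) of 38 of the 41 genes named by rank, in rows ordered by their change over the 6 lines, with 1 column for each line. All 38 rows hold a single sign, and within a row the size differs, as for HPSE, at −1.80 in HeyA8 and −0.36 in SK-OV-3-TR.

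Genes higher and genes lower in every line differed in base composition. Among protein-coding genes with the same sign in 6 of 6 lines and an unadjusted p under 0.05, the 521 higher genes had a median GC content of 42.0% and the 541 lower genes 53.1%, against 48.3% over the 14274 tested. Median gene lengths were 43039, 28163 and 34032.5 bp. The correlation of the change with GC content across genes ran from −0.21 in HeyA8-MDR to 0.11 in HeyA8, so it did not have the same sign in every line. After a correction of each line for GC content and length, 748 genes were higher and 917 lower in 6 of 6 lines. These counts do not say whether the genes were the same as before the correction. The part of GC content in these results was not otherwise tested. Promoters differed little: CACGTG was in 11.3% of 432 promoters of higher genes, 10.2% of 460 of lower genes and 9.64% of all tested, and TATAAA in 6.48%, 4.57% and 6.05%.

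The QC effect was also compared between the 3 resistant and the 3 sensitive lines by a term for the difference in edgeR. An adjusted p under 0.05 was reached by 0 of 18720 genes, with 217 at an unadjusted p under 0.05. Of the genes named here, 0 had a difference past the adjusted threshold. A p that misses the threshold does not show that the groups responded alike.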

How the data were processed

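The 12 libraries were poly(A) RNA-seq libraries, 1 for each of 6 cell lines with vehicle or QC. The authors deposited 1 table of raw counts per gene, with 60669 gene IDs. A symbol was found for 41085, and the 19584 others held 0.457% of counts. The submitters' processing notes name STAR 2.7.3a, HTSeq 0.6.1p1 and GRCh38.p13, whereas the study's methods describe another aligner and an older build, so no coordinates were tied to the counts. Replicates were not pooled.

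Counts were fitted in edgeR 4.0.16 (R 4.3.3) by the quasi-likelihood test, two-sided, with TMM scaling and terms for line and treatment, on the 18720 genes that passed filterByExpr, with Benjamini-Hochberg adjustment. The residual degrees of freedom were 5. Changes by line used a prior count of 2. DESeq2 1.42.0, limma 3.58.1 voom, other scalings and filters, leaving out each line, and a correction for GC content and length were alternatives. The correction and the newer quasi-likelihood method of edgeR were added after the data were seen. DESeq2 gave 3993 genes no adjusted p. The block on the line follows from the shared cell line, and within-line correlations of deviations from the group means lay between 0.867 and 0.921. On simulated data over 18720 genes, the test of the QC effect recovered 96% of 100 genes with a log2 change of 1 and 100% of 100 with 2. The simulation gave every gene the same dispersion. It planted an equal change in every line, and only in genes with higher counts. Real responses differed between lines, so these shares are not the power of the test on the data.

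Named genes were those with an unadjusted p under 0.05, 1 sign in 6 of 6 lines and a mean of at least 1 CPM that were among the 15 with the largest smallest change or the 10 with the smallest p in each direction. In each list, the 2 members with the smallest p and any member of 1 sign could also be named. Antisense genes, clone names and sex-linked marker genes were left out of the ranks. The members, the 42 lists and the rule were chosen with earlier results of these data known, so lists are described by counts and medians without a test. Promoters came from RefSeq on GRCh38.p14. Counting error is covered only in so far as the fit models it. Some genes are not reported here.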

Additional observations from a re-analysis of the deposited data

Results flagged for a closer look

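In 4 of the 41 genes named by rank, a single line lay far from the other 5. SVEP1, an extracellular matrix protein gene, had a log2 change of 2.47 in OV2008 and between 0.53 and 1.07 in the other lines. MFSD13A was at −1.57 in HeyA8-MDR and between −0.88 and −0.51 elsewhere, and ZNF691 was at −1.40 in HeyA8-MDR and between −0.71 and −0.36 elsewhere. HPSE, the heparanase gene, was at −1.80 in HeyA8 and between −0.75 and −0.36 elsewhere.

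The same held for 2 of the 38 lists of processes. The median change of immediate early genes was 0.88 in OV2008 and between 0.04 and 0.31 in the other lines. For RNA polymerase II and general factor genes it was −0.17 in C13 and between 0.05 and 0.16 elsewhere. Chance alone gives such a gap in about 1 of 20 groups.

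Genes of cholesterol export and LXR had a median above 0 in each of the 3 sensitive lines, at 0.31 in HeyA8, 0.26 in SK-OV-3 and 0.14 in OV2008. It was below 0 in each of the 3 resistant lines, at −0.32 in SK-OV-3-TR but only −0.04 in HeyA8-MDR and −0.01 in C13. The mean of the medians differed by −0.36, resistant minus sensitive, and the difference was not tested.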

How the results depend on the processing

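At an adjusted p under 0.05, DESeq2 gave 274 higher and 248 lower genes, the newer quasi-likelihood method of edgeR (legacy off, added after seeing the data) 44 and 13, limma voom 34 and 8, and edgeR without a filter on low counts 481 and 310. Every other fit gave 0, except that leaving out a line gave 0 to 1 higher and 0 to 0 lower genes, the 1 without HeyA8-MDR. The earlier quasi-likelihood method is the default of the installed edgeR and equals the reported fit. Without the block on cell line, 69 genes were higher and 39 lower at an unadjusted p under 0.05. Leaving out each line gave 1050 to 1576 higher and 961 to 1527 lower genes at that threshold, and 925 to 1321 higher and 1085 to 1640 lower genes with 1 sign in 5 of 5 lines. A change of at least 0.5 in every line left 26 higher and 11 lower genes. Of 197 named genes, most of them chosen for 1 sign in every line, VWF alone changed sign in any of 15 fits. Scaling by library size moved the median of all genes in HeyA8-MDR by −0.13, in C13 by 0.12 and in SK-OV-3-TR by −0.12. Causes of these differences were not tested. With 1 library per line and treatment, spread within a line cannot be told from the response of the line.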
